A study of Mus musculus with 4 samples.

Results

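Transcript levels of 10 genes of glucose uptake and glycolysis were followed in mouse thymic invariant natural killer T (iNKT) cells, from the earliest precursors through dividing cells to the mature subsets. The genes were picked by symbol: the glucose transporters Slc2a1 and Slc2a3, the enzymes of the committing steps Hk2 and Pfkp, the middle enzymes Aldoa, Tpi1, Gapdh and Pgk1, and the last enzymes Pkm and Ldha. They occupied 11 of the 31053 gene rows measured, because Aldoa is listed under 2 identifiers. The second Aldoa identifier held 12 unique molecular identifiers (UMIs, each counting 1 captured transcript) against 87303 for the first, which is the one reported.

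Thymic cells that bound the CD1d tetramer were sorted as CD44low and CD44high cells in equal numbers and sequenced from their 5' ends in droplets, 1 library per mouse. There were 2 libraries from untreated C57BL/6 mice and 2 from untreated Hivep3-/- mice backcrossed to C57BL/6, all 8 to 9 weeks old. Hivep3 encodes a large zinc finger protein, and the sources used here do not give the part of the gene that was deleted. Because the sort set the proportion of CD44low to CD44high cells, shares of cells do not give the make-up of a thymus.

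Glycolysis splits glucose into pyruvate and yields ATP and building blocks without oxygen. Resting lymphocytes draw mainly on oxidative phosphorylation, whereas dividing lymphocytes take up more glucose and turn much of it into lactate. iNKT cells pass from a CD24-high precursor, called stage 0, through a burst of division into iNKT1, iNKT2 and iNKT17 subsets, which resemble the polarised subsets of helper T cells.

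After filtering, 7231 and 3651 C57BL/6 cells and 4598 and 4167 Hivep3-/- cells remained, with median UMIs per cell of 4596 and 5268 against 6833 and 6491. Library values are always given with replicate 1 before replicate 2. Clusters were made without the 10 genes and without the related lists described later, and 5 classes were named from markers as stage 0-like, cycling-like, iNKT2-like, iNKT17-like and iNKT1-like. Clusters that could not be named held 2956 cells and belong to no class. The largest of them, led by Klra3, had 829 and 585 C57BL/6 and 325 and 234 Hivep3-/- cells. The cycling-like class made up 18.5% and 12.5% of C57BL/6 cells and 5.13% and 9.62% of Hivep3-/- cells. Levels are CPM, the share of a class's UMIs in a library scaled to 1000000. Hivep3 itself stood at 38.5 and 36.4 CPM over all C57BL/6 cells and at 101 and 68.0 CPM over all Hivep3-/- cells, so these 5' counts do not check the deletion. Xist had 14609 UMIs in C57BL/6 replicate 1 and 3 to 25 in the other 3 libraries, which alone held Y-linked transcripts (3568 to 4879 UMIs). Sex is therefore unbalanced between the genotypes, and the Y-linked transcripts of C57BL/6 replicate 2 go against the study's description of these C57BL/6 mice as female. Summed markers of B cells reached at most 17.9 CPM in a class and those of erythroid cells 1.30 CPM, while the myeloid list stood at 110 to 342 CPM with up to 4 of its 5 genes at 0. Between 26 and 58 cell barcodes were shared by each pair of libraries.

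The stretches upstream of the start sites are shown for 4 members that the genotype comparison turns on, together with Tpi1, which holds no match. The first Aldoa start, not shown, holds none either, while Slc2a1, Hk2 and Pfkp, also not shown, do hold matches. Each is the RefSeq sequence of the 250 bases before an annotated start on GRCm38.p6, written 5' to 3' along the gene's own strand, with ACGTG or GCGTG on either strand in capitals. These letters are the core that hypoxia-inducible factor 1 recognises. Aldoa is at chr7:126799255-126799504 (minus strand, the second of 3 starts), Gapdh at chr6:125165774-125166023 (minus), Pgk1 at chrX:106186850-106187099 (plus), Ldha at chr7:46845554-46845803 (plus, the first of 2 starts) and Tpi1 at chr6:124814159-124814408 (minus).
Aldoa: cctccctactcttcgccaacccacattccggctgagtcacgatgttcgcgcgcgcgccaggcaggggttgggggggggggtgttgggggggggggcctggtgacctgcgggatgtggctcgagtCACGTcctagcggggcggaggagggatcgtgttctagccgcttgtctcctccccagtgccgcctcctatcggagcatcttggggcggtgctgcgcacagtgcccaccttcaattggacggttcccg
Gapdh: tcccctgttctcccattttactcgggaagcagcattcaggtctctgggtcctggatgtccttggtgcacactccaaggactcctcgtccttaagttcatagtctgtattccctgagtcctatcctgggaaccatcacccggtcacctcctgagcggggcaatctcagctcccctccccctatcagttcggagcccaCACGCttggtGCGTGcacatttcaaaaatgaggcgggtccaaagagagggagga
Pgk1: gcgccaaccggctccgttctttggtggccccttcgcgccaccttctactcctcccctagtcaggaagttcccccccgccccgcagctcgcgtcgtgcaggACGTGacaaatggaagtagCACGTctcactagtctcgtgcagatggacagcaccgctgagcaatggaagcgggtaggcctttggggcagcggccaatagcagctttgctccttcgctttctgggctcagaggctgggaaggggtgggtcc
Ldha: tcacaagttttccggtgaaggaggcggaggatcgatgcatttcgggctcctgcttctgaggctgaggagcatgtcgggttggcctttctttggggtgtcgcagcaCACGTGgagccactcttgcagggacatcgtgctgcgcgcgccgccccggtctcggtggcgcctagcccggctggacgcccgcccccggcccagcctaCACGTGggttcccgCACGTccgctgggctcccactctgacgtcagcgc
Tpi1: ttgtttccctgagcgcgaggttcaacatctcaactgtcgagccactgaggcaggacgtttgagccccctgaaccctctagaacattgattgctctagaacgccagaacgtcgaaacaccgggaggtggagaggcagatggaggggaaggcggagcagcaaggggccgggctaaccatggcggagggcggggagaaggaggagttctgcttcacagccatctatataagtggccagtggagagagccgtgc

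The full windows searched run from 250 bases before to 50 bases after each start, and 9 of the 10 members had at least 1, with 13 windows in all. At least 1 core was present in 10 of these 13 windows, covering 8 members, and in 43.8% of all 32851 windows. Of the 10, 2 are overlapping Aldoa windows that hold the same match. The count of 8 members takes any window of a member, whereas the share of all windows is per window. With only the first window of each member, 6 of the 9 held a core. Ldha held the most matches, 7 in its first window. Of these, 5 were ACGTG (in 19.6% of all windows) and 2 were GCGTG (in 32.4%). Some of its ACGTG matches overlap inside the palindrome CACGTG, which occurred 2 times there, is counted on both strands, and was found in 7.15% of all windows. Ldha was the only member with CACGTG. Pfkp held 4 core matches, Gapdh 3, and Pgk1, Hk2 and Slc2a1 2 each, while 3 or more matches were found in 3 member windows and in 8.93% of all windows. The first Aldoa start, the first Pkm start and the Tpi1 start had none. A match is a run of letters and was not tied to any binding here.

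In CPM summed over the 10 genes, a sum in which Gapdh weighs most, levels were highest in stage 0-like and cycling-like cells and lowest in iNKT1-like cells. Several members, such as Slc2a1, Slc2a3 and Tpi1, did not follow this order. The sum was 8323 and 8546 CPM in C57BL/6 stage 0-like cells and 7685 and 7150 CPM in their Hivep3-/- counterparts. Cycling-like cells held 9857 and 8864 CPM in C57BL/6 and 7515 and 7074 CPM in Hivep3-/-, so stage 0-like and cycling-like libraries overlapped. The next level down was that of iNKT2-like cells, with 5788 and 5388 CPM against 4743 and 4375 CPM. iNKT17-like cells, at 4987 and 5377 against 4907 and 4635 CPM, overlapped with them. iNKT1-like cells stood below all of these at 3735 and 3986 against 3875 and 3491 CPM. In UMIs per cell the order differed: the sum was 36.8 and 54.8 against 50.5 and 43.0 in stage 0-like cells and 119 and 137 against 94.6 and 95.9 in cycling-like cells, whose libraries were all above. iNKT2-like cells, at 44.2 and 52.2 against 44.7 and 39.9 UMIs per cell, overlapped with stage 0-like cells. The plot of the members by class shows each gene in every library.

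**Figure D1:**
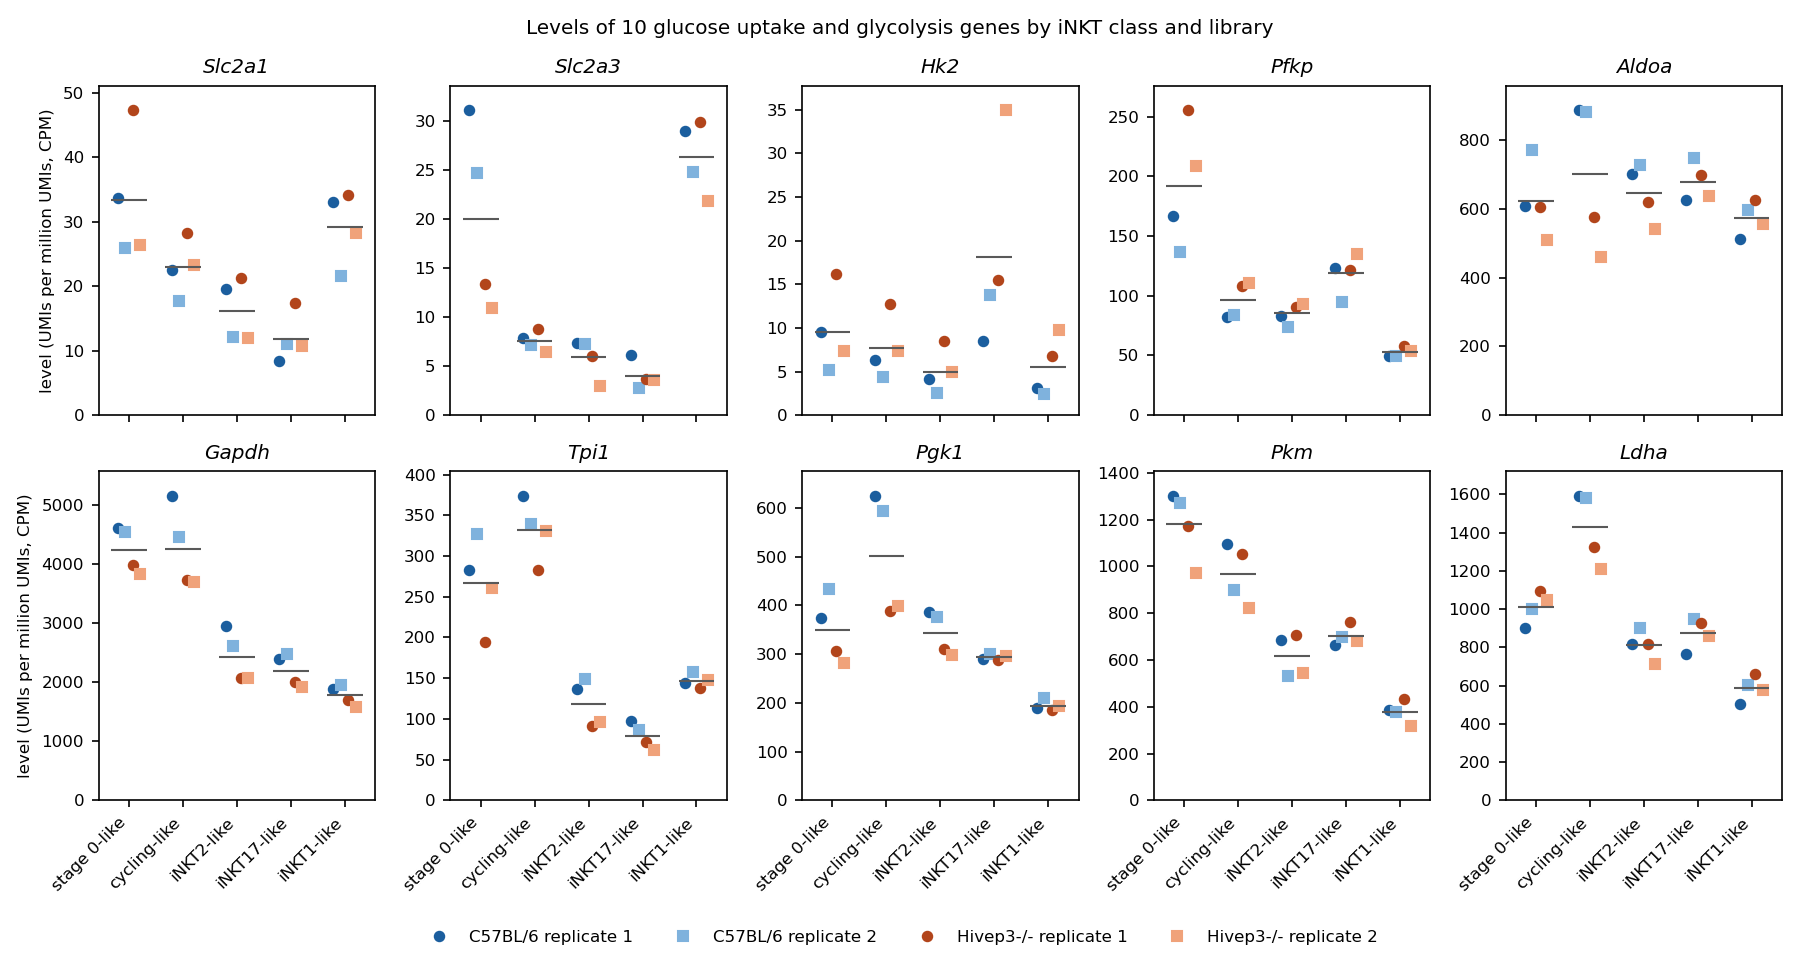
Level of each of the 10 genes in CPM (linear axis from 0) in the 5 classes. Each point is 1 library, colour gives the genotype and the bar is the mean of the 4 libraries. Gapdh sits between 3701 and 5162 CPM in stage 0-like and cycling-like cells and between 1588 and 1945 CPM in iNKT1-like cells, whereas Slc2a3 is as high in iNKT1-like cells (21.9 to 29.9 CPM) as in stage 0-like cells of C57BL/6 (24.7 and 31.1 CPM).

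Classes were compared within each library, and a gene was counted as different when it was 2-fold or more apart in the same direction in all 4 libraries, with at least 10 CPM in the higher class. Because the classes are clusters of the same cells, these comparisons are descriptions and carry no test. Values are means of the within-library log2 differences in CPM, ± SD over 4 libraries. Cycling-like cells also held more UMIs, 12100 to 15426 per cell on average against 3680 to 9685 in the other classes, so each direction was read again in UMIs per cell. The median over all genes for cycling-like minus stage 0-like was -0.15 in CPM, 0.05 after TMM scaling and 1.06 in UMIs per cell.

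In CPM, the transporters were lower in dividing cells than in stage 0-like cells and high again in iNKT1-like cells, although in UMIs per cell Slc2a1 was higher in dividing cells (0.68). Slc2a1 encodes GLUT1, the main glucose carrier of activated T cells, and lies on chromosome 4, 595801 bp from Hivep3. In C57BL/6 and then Hivep3-/- libraries it stood at 33.7 and 26.0 against 47.3 and 26.4 CPM in stage 0-like cells and at 22.6 and 17.7 against 28.3 and 23.4 CPM in cycling-like cells. Its means were lowest in iNKT2-like cells, at 19.6 and 12.1 against 21.3 and 11.997 CPM, and in iNKT17-like cells, at 8.46 and 10.98 against 17.4 and 10.8 CPM. iNKT1-like cells were again at 33.0 and 21.6 against 34.2 and 28.3 CPM, overlapping with the stage 0-like libraries. Relative to iNKT2-like cells, Slc2a1 was higher by 0.87 ± 0.24 in iNKT1-like cells, in 4 of 4 libraries, and by 0.10 in UMIs per cell.

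Slc2a3 encodes GLUT3, a carrier of high affinity. Its levels were 31.1 and 24.7 CPM in C57BL/6 stage 0-like cells and 13.3 and 10.95 CPM in Hivep3-/- stage 0-like cells. All 4 cycling-like libraries were lower, at 7.85 and 7.12 against 8.75 and 6.44 CPM, a difference of -1.30 ± 0.71 from stage 0-like (-0.090 in UMIs per cell). iNKT2-like cells remained low, at 7.37 and 7.29 against 6.00 and 2.94 CPM, and iNKT17-like cells rested on 3 to 8 UMIs per library. The level in iNKT1-like cells, 29.0 and 24.8 against 29.9 and 21.9 CPM, was above that in iNKT2-like cells by 2.21 ± 0.47. Slc2a3 was the only member counted as 2-fold or more higher in iNKT1-like than in iNKT2-like cells, and no member was 2-fold or more lower, while 3.89% of all genes were higher and 1.99% lower. In UMIs per cell, the Slc2a3 difference was 1.44 and its lowest library was at 0.79, under 2-fold, while Pfkp, Pgk1 and Pkm were 2-fold or more lower in all 4 libraries. The median over all genes was -0.75 on that scale, for which no share of all genes is given.

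Hk2 and Pfkp govern the entry of glucose into the pathway. Hk2, an inducible hexokinase, was sparse, at 9.52 and 5.20 against 16.2 and 7.30 CPM in stage 0-like cells. It lay between 2.40 and 12.8 CPM in the libraries of the cycling-like, iNKT2-like and iNKT1-like classes. Its highest single value, 34.9 CPM, came from the iNKT17-like cells of Hivep3-/- replicate 2, where the other 3 libraries held 8.46 to 15.5 CPM. Hk2 was higher in iNKT17-like than in iNKT2-like cells in all 4 libraries (1.81 ± 0.96), but by less than 2-fold in Hivep3-/- replicate 1 (0.90), and it also missed the level needed to be counted.

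Pfkp, the platelet-type phosphofructokinase subunit, was a stage 0 gene among the members. Its levels were 166 and 137 CPM in C57BL/6 and 255 and 209 CPM in Hivep3-/- stage 0-like cells, and 81.9 and 83.5 against 108 and 110 CPM in cycling-like cells. iNKT1-like cells had the lowest level of the 5 classes, at 49.1 and 49.9 against 57.8 and 53.9 CPM. iNKT17-like cells held more, 123 and 95.1 against 121 and 135 CPM, and exceeded iNKT2-like cells (83.4 and 74.1 against 90.2 and 93.3 CPM) by 0.47 ± 0.09. No stage 0-like library overlapped with another class, although the lowest of them, at 137 CPM, was close to the highest iNKT17-like library, at 135 CPM.

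Of the middle enzymes, Tpi1 and Pgk1 were higher in cycling-like than in stage 0-like cells in all 4 libraries, whereas Gapdh and Aldoa differed in both directions. Gapdh encodes glyceraldehyde-3-phosphate dehydrogenase and had the most UMIs of the 10. It stood at 4611 and 4548 against 3978 and 3827 CPM in stage 0-like cells and at 5162 and 4454 against 3733 and 3701 CPM in cycling-like cells, with differences of both signs (-0.0018 ± 0.11). In UMIs per cell it was higher in cycling-like cells by 1.21 on the log2 scale, and by 0.20 with TMM scaling. iNKT2-like libraries held 2947 and 2613 against 2074 and 2066 CPM, a difference of -0.82 ± 0.04 from cycling-like. iNKT17-like libraries were at 2399 and 2472 against 1998 and 1914 CPM, and iNKT1-like libraries at 1882 and 1945 against 1702 and 1588 CPM.

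Tpi1, the triose phosphate isomerase, was at its peak in dividing cells. It had 283 and 328 against 194.5 and 260.4 CPM in stage 0-like cells and 374 and 339.8 against 282 and 331 CPM in cycling-like cells. The level in iNKT2-like cells was 137 and 149 against 90.8 and 96.7 CPM. That difference, -1.51 ± 0.25, made Tpi1 the only member counted as 2-fold or more lower in iNKT2-like than in cycling-like cells, and 0 members were higher, against 5.28% and 0.729% of all genes. iNKT17-like cells were lower still, at 96.9 and 86.0 against 71.2 and 61.8 CPM. iNKT1-like cells, at 144 and 157 against 138 and 147 CPM, differed from iNKT2-like cells by 0.34 ± 0.30 in CPM and by -0.43 in UMIs per cell.

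Pgk1 encodes phosphoglycerate kinase, an X-linked enzyme that forms ATP. It was 374 and 434 CPM in C57BL/6 and 306 and 281 CPM in Hivep3-/- stage 0-like cells, and 625 and 593 against 388 and 399 CPM in cycling-like cells. The cycling-like value was higher in each library (0.51 ± 0.17). iNKT2-like cells had 386 and 376 against 311 and 298 CPM, iNKT17-like cells 291 and 301 against 288 and 296 CPM, and iNKT1-like cells 188.5 and 209.7 against 186 and 193 CPM. No iNKT1-like library reached the level of any other class.

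Aldoa, the muscle-type aldolase that also serves lymphocytes, spread over the narrowest range of class means. Stage 0-like cells held 608 and 772 against 605 and 509 CPM, and cycling-like cells 886 and 882 against 574 and 459.5 CPM. The C57BL/6 cycling-like libraries were the highest of all, and the cycling-like library of Hivep3-/- replicate 2 was the lowest. The other classes ran from 513 to 748 CPM, with iNKT2-like cells at 702 and 726 against 619 and 542 CPM.

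At the end of the pathway, Pkm encodes pyruvate kinase, whose muscle isoforms the 5' counts cannot separate, and Ldha the lactate dehydrogenase subunit that favours lactate. Pkm was highest in stage 0-like cells, at 1303 and 1273 against 1173 and 973 CPM, followed by cycling-like cells at 1097 and 901 against 1055 and 824 CPM. iNKT2-like cells (686 and 530 against 706 and 545 CPM) and iNKT17-like cells (664 and 697 against 762 and 683 CPM) overlapped. iNKT1-like cells had the least, 388 and 376 against 433 and 320 CPM.

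Ldha, by contrast, peaked in cycling-like cells, at 1594 and 1582 CPM in C57BL/6 and 1325 and 1212 CPM in Hivep3-/-. Stage 0-like cells held 903 and 999.6 against 1096 and 1046 CPM, and the difference between the classes was 0.49 ± 0.30. iNKT2-like cells were at 816 and 898 against 817 and 715 CPM, iNKT17-like cells at 764 and 950.5 against 929 and 858 CPM, and iNKT1-like cells at 504 and 601 against 662 and 575 CPM. Every cycling-like library was above every library of the other classes.

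Counted by the 2-fold rule, 0 of the 9 members that reached the level differed between cycling-like and stage 0-like cells, where 4.06% of all genes were higher and 3.17% lower. Tpi1, Pgk1 and Ldha were higher in cycling-like cells in all 4 libraries, in CPM and in UMIs per cell. Slc2a1, Hk2, Pfkp and Pkm averaged lower in CPM (-0.52, -0.34, -0.97 and -0.29), but all 4 were higher in UMIs per cell (0.68, 0.87, 0.23 and 0.92). The median over all genes in UMIs per cell was 1.06. From stage 0-like to iNKT1-like, a comparison added after the data were seen, Pfkp (-1.83 ± 0.29), Pkm (-1.64 ± 0.15) and Gapdh (-1.25 ± 0.03) were 2-fold or more lower and 0 members were higher. Of all genes, 10.5% were lower and 7.85% higher in that comparison, with a median of -0.33 in CPM and -0.02 after TMM scaling. Tpi1, Pgk1 and Ldha were also lower in iNKT1-like cells in all 4 libraries, with means of -0.84, -0.83 and -0.79. With TMM scaling, only Pfkp and Pkm were 2-fold lower.

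**Figure D2:**
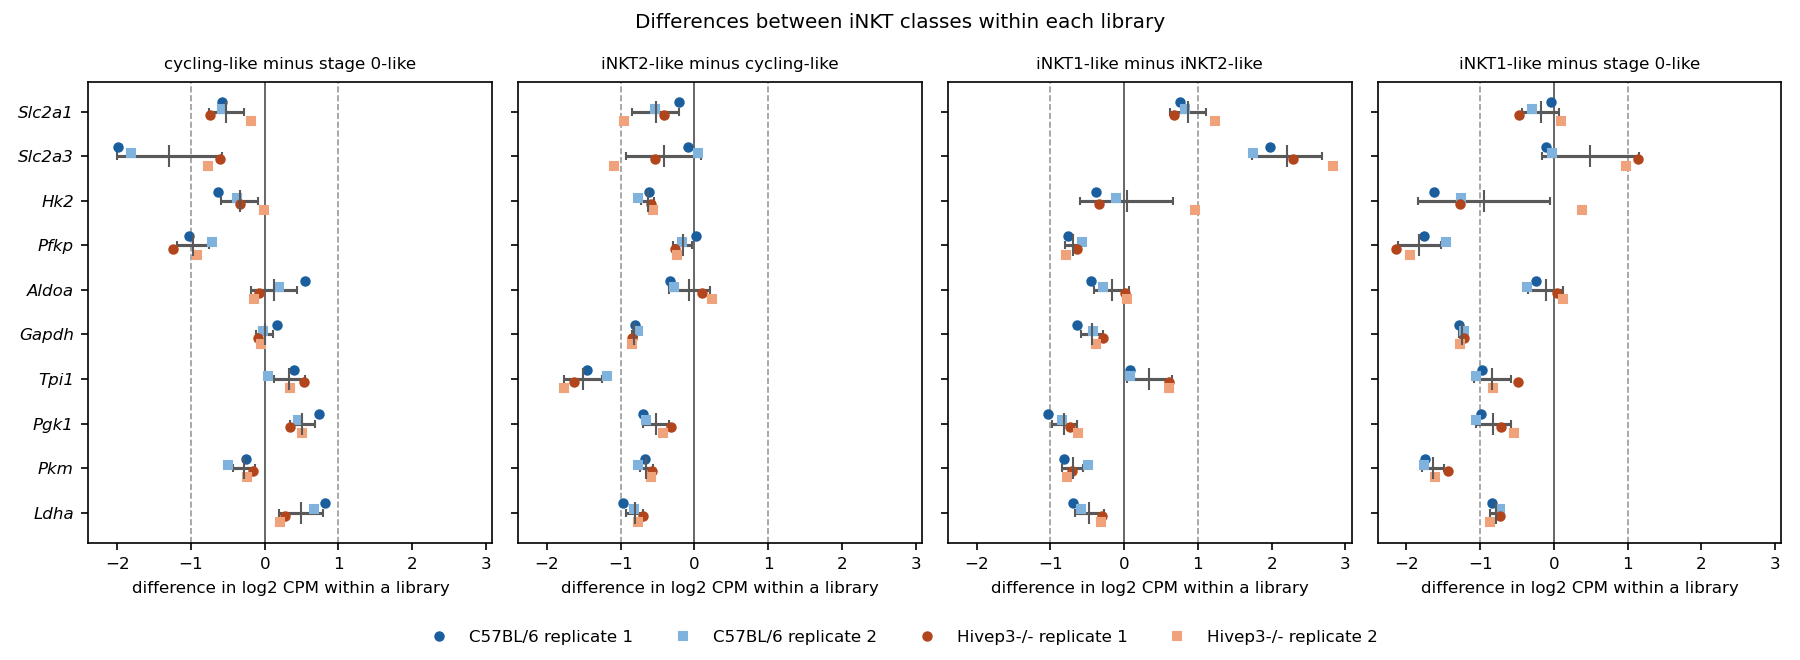
Within-library log2 difference in CPM for each member and class comparison; points are libraries, the upright tick is the mean, the horizontal bar its SD over 4 libraries, and the dashed lines mark a 2-fold difference. Tpi1 lies below -1 in all 4 libraries for iNKT2-like minus cycling-like, and Slc2a3 above 1 in all 4 for iNKT1-like minus iNKT2-like.

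iNKT17-like and iNKT2-like cells did not differ by 2-fold in any member that reached the level, while 3.3% of all genes were higher and 1.2% lower in iNKT17-like cells. The Tpi1 difference was -0.56 ± 0.19. Late iNKT1-like cells were the clusters with both Gzma and Ccl5 among their 10 leading genes. They also showed 0 such members against the other iNKT1-like cells (0.403% of all genes higher, 0.209% lower). Within that range, 6 members were lower in all 4 libraries, among them Gapdh (-0.39 ± 0.13) and Pkm (-0.37 ± 0.09), and Slc2a1 was higher (0.48 ± 0.17). The share of all genes lower in all 4 is not given. By this rule the other group held a cluster led by Gzmb, with 7 late and 6 iNKT1 markers among its 50 leading genes. Summed over the members, late cells averaged 3158 CPM and that Gzmb-led cluster 5058 CPM. The remaining clusters of the other group, led by Fgl2 and by Ifit3b, averaged 3360 and 3434 CPM.

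The iNKT1-like cells were not uniform. One of their clusters, led by Gzmb, was set beside the cluster led by Fgl2 and Klrc1, a comparison added after the data were seen. No member was counted as 2-fold apart (1.62% of all genes were higher in the Gzmb-led cluster and 0.268% lower). Of the 9 that reached the level, 7 were higher in the Gzmb-led cluster in all 4 libraries and 1 was lower. Hk2, below that level, was also higher in all 4. The share of all genes higher in all 4 libraries is not given. The median difference was 0.56 over the 9 members and -0.078 over all genes. Tpi1 was at 249.5 and 261 against 205 and 223 CPM in the Gzmb-led cluster and at 121 and 114 against 109 and 117 CPM in the other, a difference of 1.02 ± 0.13. Pgk1 (0.79 ± 0.05), Ldha (0.68 ± 0.05), Gapdh (0.65 ± 0.08) and Pkm (0.56 ± 0.14) were higher too. The Slc2a3 difference was -0.51 ± 0.16.

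Genotypes were compared in sums of UMIs per library and class, with 2 libraries per genotype. A call needed an adjusted p under 0.05 in the quasi-likelihood test of edgeR, with Benjamini-Hochberg adjustment over all genes. The 2 libraries of a genotype come from separate mice. Differences are log2, Hivep3-/- minus C57BL/6, with their standard error (SE).

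In cycling-like cells, Aldoa, Pgk1 and Gapdh were lower in Hivep3-/- mice, 3 of the 10 members in a comparison that called 3.72% of all genes, with 1.81% lower. Aldoa went from 886 and 882 CPM to 574 and 459.5 CPM, a difference of -0.94 (SE 0.13, edgeR adjusted p = 0.0107). Pgk1 went from 625 and 593 CPM to 388 and 399 CPM, -0.79 (SE 0.11, edgeR adjusted p = 0.0115). Gapdh went from 5162 and 4454 CPM to 3733 and 3701 CPM, -0.53 (SE 0.11, edgeR adjusted p = 0.0498). In none of the 3 genes did the genotypes overlap.

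Gapdh was not called in 7 of 13 alternatives, and its adjusted p by edgeR reached 0.222 without C57BL/6 replicate 1 and 0.0683 without Hivep3-/- replicate 1. Aldoa and Pgk1 were called in all 13. Pgk1 is X-linked, and without C57BL/6 replicate 1, the library with Xist, its difference was -0.76 (edgeR adjusted p = 0.0115). Ldha differed by -0.49 (SE 0.10, edgeR adjusted p = 0.0508) and Tpi1 by -0.38 (SE 0.14, edgeR adjusted p = 0.198), neither a call. Ldha was called in 5 of the 13 alternatives. Slc2a1, Hk2 and Pfkp had positive differences and no call. Genotypes did not overlap in 7 of the 8 members that averaged 10 CPM or more, and in 54.6% of all such genes.

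The cycling-like class was made up differently in the 2 genotypes. The cluster led by the mitotic gene Ccnb2 held 33.0% and 33.0% of C57BL/6 cycling-like cells against 16.9% and 19.95% of Hivep3-/- ones, and the cluster led by the histone gene Hist1h2ap held 15.2% and 17.1% against 18.6% and 36.2%. The smallest cluster, led by Mki67, held 1.42% and 2.86% against 15.7% and 4.99%, and with 13 to 37 cells per library it was not tested. The 7 markers of double positive thymocytes, such as Rag1 and Dntt, summed to 9.40 to 21.2 CPM in C57BL/6 (0 to 3 markers at 0) and to 31.3 to 39.0 CPM in Hivep3-/- cycling-like cells (0 to 2 markers at 0), and their part in the result was not tested. The 3 main clusters of the class were therefore tested one by one, an alternative chosen after the data were seen. Aldoa differed by -0.65 in the cluster led by Cdc6 (edgeR adjusted p = 0.0358), by -1.03 in the Ccnb2-led cluster (0.00315) and by -1.15 in the Hist1h2ap-led cluster (0.0016). Pgk1 differed by -0.78 (edgeR adjusted p = 0.0083), -0.65 (0.0218) and -0.62 (0.0423) in the same order. Gapdh was at -0.53, -0.47 and -0.49, with no call. These comparisons called 3.48%, 2.36% and 3.45% of all genes. In the Ccnb2-led cluster, Aldoa stood at 789 and 826 CPM in C57BL/6 and at 458 and 398.5 CPM in Hivep3-/-.

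An unnamed cluster was led by Tnni1 (32 cells in its smallest library). It had 3 stage 0 markers among its 50 leading genes but 0 among the first 10, so it was left out of the stage 0-like class. The same 3 members were called in this cluster, in a comparison added after the data were seen that called 2.8% of all genes. Tests of the clusters led by Fgl2, Ccl5, Gzmb and Ifit3b and of an unnamed one led by Klra3, added likewise, called 0 members. The share of all genes called in those clusters is not given. There Pgk1 differed by -0.84 (edgeR adjusted p = 0.0166), Gapdh by -0.61 (0.0329) and Aldoa by -0.68 (0.0356). Pgk1 was 387 and 455 CPM in C57BL/6 against 245 and 250.5 CPM in Hivep3-/-.

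**Figure D3:**
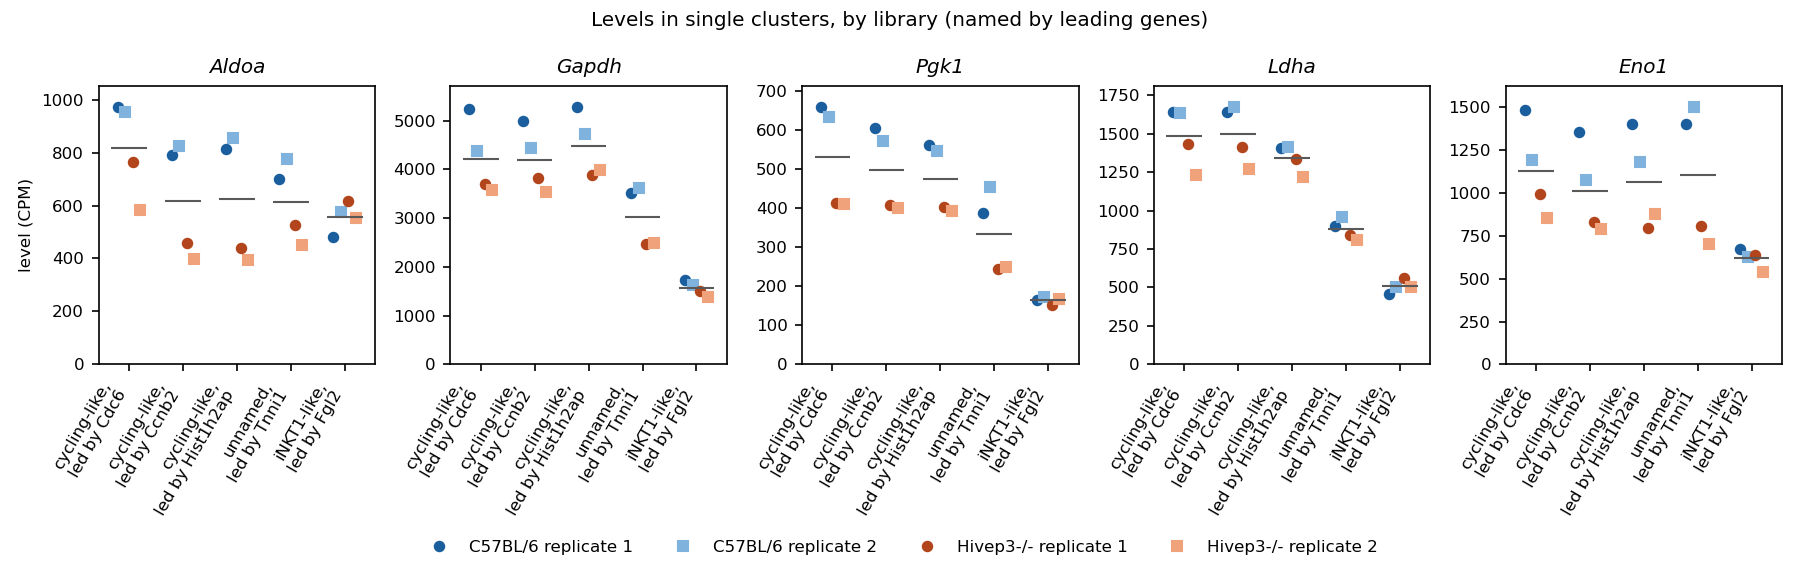
CPM (linear axis from 0) of Aldoa, Gapdh, Pgk1, Ldha and Eno1 in the 3 main cycling-like clusters, the unnamed Tnni1-led cluster and the Fgl2-led iNKT1-like cluster. Points are libraries and bars the mean of 4; in the Ccnb2-led cluster Aldoa is at 789 and 826 CPM in C57BL/6 and 458 and 398.5 CPM in Hivep3-/-, while in the Fgl2-led cluster the Aldoa levels of the genotypes overlap.

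**Figure D4:**
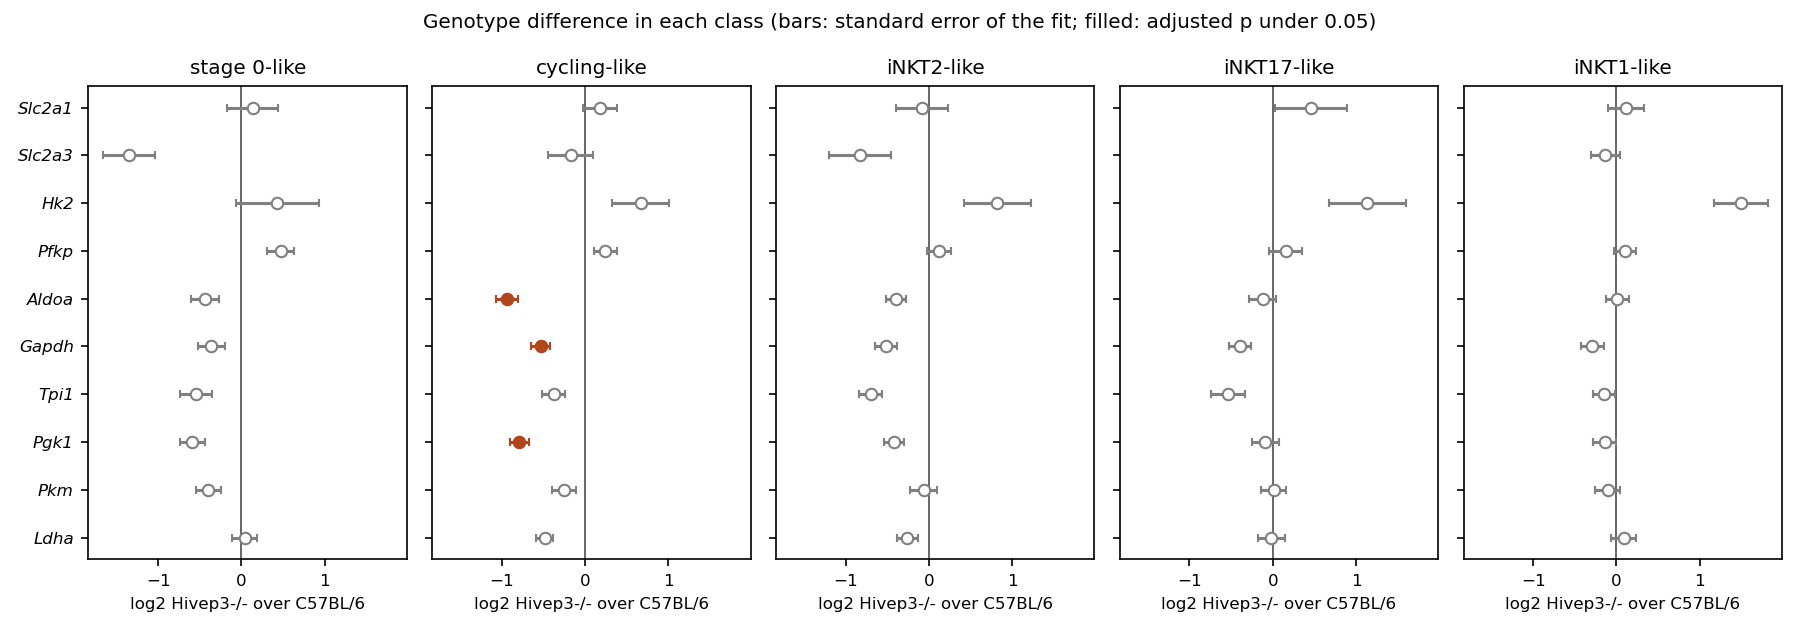
Log2 difference of each member, Hivep3-/- minus C57BL/6, in the 5 classes; points are edgeR estimates, bars are 1 SE and filled points are called. Aldoa (-0.94), Pgk1 (-0.79) and Gapdh (-0.53) are called in cycling-like cells, and 0 members are called in the other 4 classes.

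In the other 4 named classes, edgeR's quasi-likelihood test called 0 members. In stage 0-like cells, where 0.497% of all genes were called, 7 members had an unadjusted p under 0.05 and DESeq2 called 0. Shares of genes called are at the adjusted threshold, here, in the other classes and over all cells. They are no background for counts of members at unadjusted p, for which no share of all genes is given. Slc2a3 showed the largest difference of the 10 there, from 31.1 and 24.7 CPM to 13.3 and 10.95 CPM (-1.35, SE 0.31, edgeR adjusted p = 0.116). Pgk1 differed by -0.59 (SE 0.15, edgeR adjusted p = 0.18), and Pfkp was the only one of the 7 with a positive difference. With the replicate number as a block, Slc2a3 (adjusted p = 0.0319) and Pgk1 (0.0291) were called by edgeR in these cells, and Tpi1 as well. That fit called 179 of 8859 genes, against 44 of 8859 without the block. Genotypes did not overlap in 8 of 9 members, and in 41.6% of all genes at 10 CPM or more. Double positive thymocyte markers were highest in this class, at 118 and 133 CPM in C57BL/6 and 101 and 166 CPM in Hivep3-/-. Their part in the stage and genotype differences was not tested.

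In iNKT2-like cells 0.442% of all genes were called, and 4 members had an unadjusted p under 0.05 with 0 called by DESeq2. Tpi1 differed by -0.70 (edgeR adjusted p = 0.124). iNKT17-like cells had 0.105% of genes called, 3 members with an unadjusted p under 0.05 and 0 called by DESeq2. iNKT1-like cells had 0.704% of genes called and 1 such member, Hk2, which DESeq2 called. Hk2 was at 3.14 and 2.40 CPM in C57BL/6 and at 6.74 and 9.71 CPM in Hivep3-/- iNKT1-like cells, 1.49 higher (SE 0.32, edgeR adjusted p = 0.132). It was the only member called without Hivep3-/- replicate 1 there (edgeR adjusted p = 0.0265), and its difference was positive in all 5 classes. Double positive thymocyte markers summed to 3.85 to 5.20 CPM in C57BL/6 (3 to 4 of 7 markers at 0) and to 21.0 to 23.2 CPM in Hivep3-/- iNKT1-like cells (4 of 7 at 0), and their part in the result was not tested. Gapdh, in turn, was negative in all 5, between -0.29 and -0.53. Non-overlapping genotypes were seen in 5 of 8 members in iNKT2-like cells (42.9% of all genes), in 3 of 9 in iNKT17-like cells (35.8%) and in 2 of 9 in iNKT1-like cells (35.0%).

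Over all cells, edgeR called 0.765% of genes and 0 members, and 6 members had an unadjusted p under 0.05. DESeq2 called 2, Gapdh and Pgk1, and its share of all genes is not given. The median over the tested members was -0.38 in stage 0-like, -0.31 in cycling-like and -0.33 in iNKT2-like cells, where the median over all genes was 0.018, 0.030 and 0.022. In iNKT17-like and iNKT1-like cells the members' medians were -0.017 and -0.046, against -0.0017 and -0.0035 over all genes.

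The genotype difference itself was compared between classes, with the library as a block. In cycling-like against iNKT1-like cells, Aldoa, Pgk1 and Ldha differed in their genotype effect, 3 members where 6.73% of all genes were called. The Aldoa effect differed by -0.97 (SE 0.11, edgeR adjusted p = 0.000457), that of Pgk1 by -0.66 (SE 0.11, edgeR adjusted p = 0.00517) and that of Ldha by -0.59 (SE 0.10, edgeR adjusted p = 0.00657). In stage 0-like against iNKT1-like cells, 3 members were called where 2.66% of all genes were: Slc2a3, Aldoa and Pgk1. Fits with 1 library left out keep 1 library in a genotype, and not every call held in them. In these fits the first comparison gave -1.10 to -0.87 for Aldoa, -0.79 to -0.57 for Pgk1 and -0.74 to -0.48 for Ldha. The second gave -1.27 to -1.14 for Slc2a3, -0.55 to -0.38 for Aldoa and -0.55 to -0.35 for Pgk1.

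Among 29 other genes of glycolysis and lactate handling, 16 were tested in cycling-like cells, 2 were lower in Hivep3-/- mice and 0 were higher. Eno1, the main enolase, went from 1422 and 1143 CPM to 902 and 846 CPM in cycling-like cells (-0.71, edgeR adjusted p = 0.0288) and from 1364 and 1330 CPM to 785 and 714 CPM in stage 0-like cells (-0.98, edgeR adjusted p = 0.0207). Pgam2, the muscle-type phosphoglycerate mutase, had 109 and 37 UMIs in C57BL/6 and 3 and 2 UMIs in Hivep3-/- cycling-like cells (edgeR adjusted p = 0.0131). These are raw counts from unlike totals, 16189228 and 7018638 against 2971308 and 5438955 UMIs, so they overstate the difference. In stage 0-like cells Pgam2 had 33 and 19 against 13 and 11 UMIs (edgeR adjusted p = 0.0303), from totals of 1575067 and 769343 against 2473049 and 2465247 UMIs. The list had 2 calls of 14 tested in stage 0-like cells and 0 calls in iNKT2-like, iNKT17-like and iNKT1-like cells.

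Of 10 further targets of hypoxia-inducible factor, 8 were tested in cycling-like cells, with 1 higher and 1 lower. Ero1l, an oxidase of the endoplasmic reticulum, went from 61.5 and 58.3 CPM to 37.4 and 31.6 CPM (-0.97, edgeR adjusted p = 0.0189). Egln3, a prolyl hydroxylase that marks the factor for degradation, went the other way, from 6.55 and 5.70 CPM to 29.6 and 31.6 CPM (2.15, edgeR adjusted p = 0.00284). In iNKT1-like cells it was at 2.16 and 2.08 against 10.7 and 13.5 CPM (2.43, edgeR adjusted p = 0.0121). The lists of 15 regulators, 13 genes of pyruvate entry into mitochondria and 7 genes of the pentose phosphate pathway had 0 calls between genotypes in the 5 classes.

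Across the stages, Ldhb set the lactate dehydrogenase pair apart. Ldhb encodes the subunit that favours pyruvate, and it was at 357 and 334 against 264 and 277 CPM in stage 0-like cells and at 13.8 and 10.1 against 6.68 and 6.83 CPM in iNKT1-like cells, a difference of -5.09 ± 0.30. Of the UMIs of Ldha and Ldhb together, Ldhb held 28.4% and 25.0% in C57BL/6 and 19.4% and 20.9% in Hivep3-/- stage 0-like cells. The share was 5.21% and 4.11% against 4.58% and 6.42% in cycling-like cells and 2.67% and 1.65% against 0.9999% and 1.17% in iNKT1-like cells. Ldhb was thus 2-fold or more lower already in cycling-like than in stage 0-like cells (-2.03).

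Txnip, which holds back glucose uptake, went the other way. It lay between 27.1 and 31.2 CPM in stage 0-like libraries, at 32.0 and 31.9 against 45.1 and 29.8 CPM in cycling-like cells, and at 280 and 374 against 230 and 218 CPM in iNKT1-like cells. Its difference was 2.55 from iNKT2-like and 3.18 from stage 0-like to iNKT1-like cells. Hif1a, the regulated subunit of hypoxia-inducible factor 1, was at 78.7 and 98.8 against 91.4 and 77.1 CPM in stage 0-like and 53.4 and 42.6 against 35.5 and 36.3 CPM in iNKT1-like cells. Myc, a driver of glycolytic genes in activated T cells, overlapped between these classes, at 81.1 to 141 CPM in stage 0-like and 84.6 to 141 CPM in iNKT1-like libraries. None of Ldhb, Txnip, Hif1a and Myc was called between genotypes in any of the 5 classes by edgeR.

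**Figure D5:**
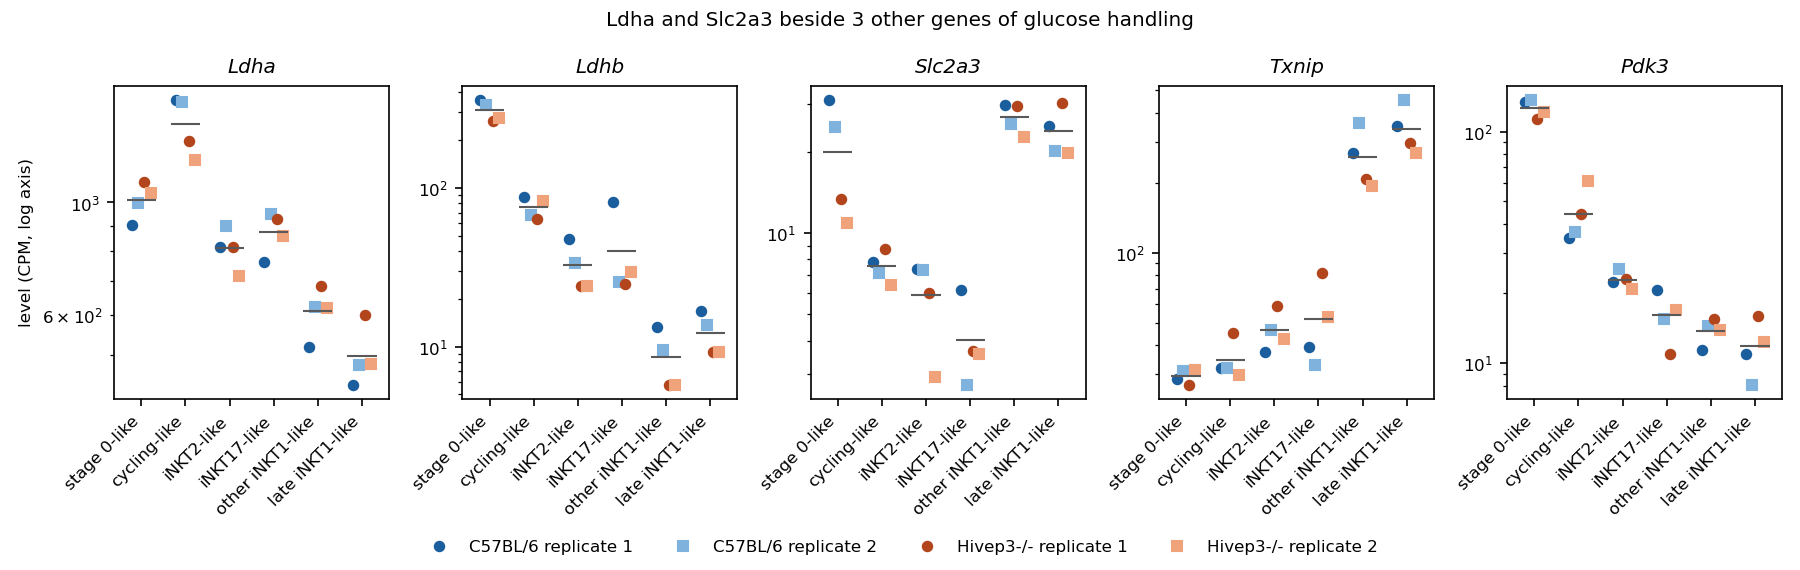
CPM (log axis) of Ldha, Ldhb, Slc2a3, Txnip and Pdk3 by class, with iNKT1-like cells split into late and other. Points are libraries, coloured by genotype, and bars the mean of 4. Ldhb is at 264 to 357 CPM and Txnip at 27.1 to 31.2 CPM in stage 0-like cells, and in both iNKT1-like groups Ldhb is below and Txnip above every stage 0-like library.

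From stage 0-like to iNKT1-like cells, 4 of 10 measured genes of the glycolysis and lactate list were lower by 2-fold or more in every library and 0 higher, beside 10.5% of all genes lower and 7.85% higher. Of 12 measured regulators, 2 were higher and 1 lower. Of 11 pyruvate-entry genes 1 was lower, of 7 hypoxia-factor targets 1, and of 7 pentose phosphate genes 0. Pdk3, a kinase that restrains pyruvate dehydrogenase, was at 135 and 136 against 114 and 121 CPM in stage 0-like and at 11.3 and 13.6 against 15.6 and 13.4 CPM in iNKT1-like cells. Pgam1 was at 477 and 559 against 390 and 340 CPM in stage 0-like and 163 and 158 against 157 and 139 CPM in iNKT1-like cells. Mycn had 25 to 47 UMIs per library in iNKT17-like cells, against 4 and 2 UMIs in C57BL/6 and 0 and 0 UMIs in Hivep3-/- iNKT2-like cells. Ero1l was higher in iNKT17-like than in iNKT2-like cells by 1.34. From stage 0-like to cycling-like cells, Pdk2 was lower (-1.68) and Foxo1 higher (1.98). Egln3 was lower in iNKT1-like than in iNKT2-like cells (-2.24) and than in stage 0-like cells (-2.89). Bpgm (-1.81), Eno3 (-1.63) and Vhl (-1.48) were also lower in iNKT1-like than in stage 0-like cells, and Foxo1 was higher (1.67).

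The members did not all vary together over the 20 sums of 5 classes in 4 libraries. The correlation of each with the mean of the other 9 was 0.907 for Gapdh, 0.887 for Pkm, 0.766 for Ldha, 0.655 for Pgk1 and 0.644 for Tpi1. It was 0.512 for Pfkp, 0.246 for Slc2a1, 0.213 for Aldoa, 0.068 for Hk2 and -0.057 for Slc2a3. Among 5276 other genes, those most like the mean of the members included Chchd2 (r = 0.973), Mrps18b (0.962), Snrpa (0.961) and Swi5 (0.951). The 20 points share libraries, depths and clusters, and these correlations describe them only.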

How the data were processed

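Per the file headers and labels, the deposited matrices hold UMI counts per gene and cell obtained by the authors by running Cell Ranger 3.1.0 against mm10 (Seurat 3.1.4 is also named in their processing notes). Barcodes with 500 to 4100 genes, at least 1000 UMIs and under 6% mitochondrial UMIs were kept. Total UMIs per library were 31381738 to 48291764. Python 3.11.15, scanpy 1.11.5, R 4.3.3, Seurat 5.3.0, irlba 2.3.5.1 and RANN 2.6.2 were used to correct libraries by mutual nearest neighbours and to cluster 30 components at resolution 0.8. A cluster was named when at least 3 markers of a class were among its 50 leading genes. At least 1 marker also had to be among its 10 leading genes, with no other class holding more there. This rule was set after the data were seen. Members and lists, too, were chosen with earlier results of these data known. Scrublet scores marked 0 to 5 cells per library, so doublets were kept, and removing the highest 5% of scores was an alternative.

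UMI counts were summed per library and class (at least 20 cells), since cells are not replicates. They were tested with edgeR 4.0.16 (filterByExpr, TMM, quasi-likelihood, two-sided, Benjamini-Hochberg), with DESeq2 1.42.0 as an alternative. The procedure was tested on simulated counts. Replicate libraries of a genotype differed beyond sampling noise (chi-square over degrees of freedom 45.7 and 56.3). All 10 members are named, with up to 4 other list genes per list and comparison that were called or 2-fold apart, plus Ldhb, Hif1a, Myc and Txnip, and the 5 genes of highest correlation, of which 1 is not reported here. Gene positions come from GENCODE vM21, which held 99.6% of the identifiers. Reads shared with near-identical copies of these genes are uncertain. Myeloid, B cell and erythroid markers were counted in every class.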

Additional observations from a re-analysis of the deposited data

Results flagged for a closer look

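6 genotype differences depended on the class of cell by a test of the difference itself (the quasi-likelihood test of edgeR, Benjamini-Hochberg adjusted, library as a block, 2 libraries per genotype). Between cycling-like and iNKT1-like cells, the effect of genotype differed by -0.97 for Aldoa, -0.66 for Pgk1 and -0.59 for Ldha (log2). Between stage 0-like and iNKT1-like cells it differed by -1.21 for Slc2a3 (SE 0.27, adjusted p = 0.0165), -0.45 for Aldoa (SE 0.10, adjusted p = 0.0151) and -0.45 for Pgk1 (SE 0.12, adjusted p = 0.0414). Over 5 alternatives, Aldoa in the cycling-like comparison was called in 5, Pgk1 and Ldha in 4 each, Slc2a3 and Aldoa in the stage 0-like comparison in 3 each, and Pgk1 in 2. Every one of these values stayed negative. The background was 6.73% of all genes in the first comparison and 2.66% in the second.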

How the results depend on the processing

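Of 168 recomputed counts of members, 150 were within 1.5 times the value reported. In stage 0-like cells the count called between genotypes was 1 with no filter on low counts and 3 with the replicate block. These fits called 231 of 13580 and 179 of 8859 genes, against 44 of 8859 in the reported one. With the replicate block, cycling-like cells had 4 called members (Ldha added), and no other count moved. Replicate numbers only name the mice. The deviation of replicate 1 from the mean of its genotype was taken for each gene and compared between the genotypes. These deviations, not the levels themselves, correlated by 0.106 to 0.179 within classes and by 0.0009 over all cells. With no low-count filter, the count was 2 in iNKT2-like cells (Gapdh, Tpi1). That fit called 362 of 14850 genes, against 42 of 9494 in the reported one. Without this filter the count was 1 in iNKT1-like cells (Hk2) and 3 over all cells (Gapdh, Hk2, Pgk1). DESeq2 called 1 in iNKT1-like cells and 2 over all cells, and the looser cell filter gave 1 over all cells. For these cycling-like, iNKT1-like and all-cell counts, the number of all genes called is not given, so they have no background. In UMIs per cell, 3 members (Tpi1, Pgk1, Ldha) were 2-fold higher in cycling-like than in stage 0-like cells and in the Gzmb-led than in the Fgl2-led cluster. On that scale 3 (Gapdh, Tpi1, Ldha) were 2-fold lower in iNKT2-like than in cycling-like cells. Another 3 (Pfkp, Pgk1, Pkm) were 2-fold lower in iNKT1-like than in iNKT2-like cells, where Slc2a3 was no longer counted. The medians over all genes in UMIs per cell were 1.06, 0.38, -0.71 and -0.75 in that order of comparisons. No share of all genes is given on this scale, so these counts have no background. Leaving out 1 library gave 0 to 1 called members in iNKT2-like cells (Tpi1, C57BL/6 replicate 1 left out) and in iNKT1-like cells (Hk2, Hivep3-/- replicate 1 left out), 1 to 2 for the difference of effects in stage 0-like and 1 to 5 in cycling-like cells. Causes were not tested. Single values that changed sign were all uncalled. At resolution 1.2, Slc2a1 in iNKT2-like cells was 0.014 and Aldoa in iNKT1-like cells -0.0078, and without correction between libraries Pkm in iNKT17-like cells was -0.0055. Leaving out 1 library gave, in stage 0-like cells, -0.29 to 0.45 for Slc2a1, -0.19 to 1.01 for Hk2 and -0.053 to 0.13 for Ldha, in cycling-like cells -0.36 to 0.0096 for Slc2a3, and over all cells -0.27 to 0.34 for Slc2a3. In iNKT2-like cells the ranges were -0.49 to 0.35 for Slc2a1 and -0.23 to 0.13 for Pkm, and in iNKT17-like cells -0.25 to 0.034 for Aldoa, -0.039 to 0.060 for Pkm and -0.18 to 0.17 for Ldha. In iNKT1-like cells they were -0.16 to 0.47 for Slc2a1, -0.30 to 0.012 for Slc2a3, -0.083 to 0.12 for Aldoa, -0.26 to 0.041 for Pkm and -0.025 to 0.21 for Ldha. Where 1 library was left, its spread was taken from the other genotype. Genes at few UMIs, such as Hk2 and Slc2a3, are limited by depth.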
